A study of Saccharomyces cerevisiae with 5 samples.

Results

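Mitochondria carry a ribosome of their own, which in budding yeast makes the few proteins encoded in mitochondrial DNA, most of them core subunits of the respiratory chain and of ATP synthase. Its RNAs come from the mitochondrial genome, whereas nearly all of its proteins are encoded in the nucleus, made in the cytosol and imported. Many of their mRNAs are bound by Puf3, an RNA-binding protein that controls their decay and translation and brings them near the mitochondrial surface. The genes described here were chosen by name: symbols that begin with MRPL, MRPS, RSM or MRP directly before a digit, together with IMG1 and IMG2 and without MRP8, which is not a ribosomal protein. The rule found 67 genes among 5379 genes with a named spot on the array, of which 39 encode proteins of the large subunit and 28 proteins of the small subunit. MRPL44 also has such a symbol in the yeast gene table and was not analysed here. All 67 genes had 1 spot each and a value on all 3 arrays, so none was lost to the requirement for complete values that left 4824 genes for the test.

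Cells of Saccharomyces cerevisiae S288C, a laboratory strain with a transposon in the gene of the heme-responsive activator Hap1, were grown at 25 °C in YPD, a rich medium with 2% glucose, 2% polypeptone and 1% yeast extract. Glucose at such a level represses respiration in this yeast. Copper(II) sulfate was added to 10 mM to exponentially growing cells, which were harvested after 2 h, and control cells grew for 2 h more without it. Their polyA RNA was labelled with Cy5 (copper) and Cy3 (control) and hybridised together on 3 arrays from independent biological samples, with no dye swap, so a dye bias of a single gene and an effect of copper cannot be told apart. RNA came from whole cultures, and fewer cells with a transcript cannot be told apart from less of it per cell.

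The values are log2 ratios from the authors' deposited table, in which 1 unit is a 2-fold difference and the median of each scan lies near 0. Which channel was divided by which is not stated. The labels list the copper channel ahead of the control channel, which makes copper over control likely, and if it were control over copper every rise and fall below would exchange places. In the likely direction CUP1-1, the copper metallothionein gene that copper is known to induce, had a mean log2 ratio of 4.33, and CTR1, the copper transporter gene that copper is known to shut off, had -3.13. The scans held a value for 5367, 5264 and 5952 of 6912 spots on array 1 and on the high-power scans of arrays 2 and 3. The number of arrays limits the precision: the smallest mean log2 ratio past the threshold among all genes was 0.46 in size. P-values rest on the spread between the 3 arrays of each gene, moderated by limma towards the spread typical of all genes.

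The comparison asked whether the genes of this ribosome differed between copper-treated and untreated cells, and whether its subunits differed from each other. Few of them passed the test. In the limma test over all genes, at an adjusted p of 0.05, 4 of the 67 rose, 5 fell and 58 did not pass. That is 13.4% of the family, against 23.5% of all tested genes, where 11.5% rose and 12.0% fell. Without arrays 1, 2 and 3 the rises numbered 3, 2 and 9 and the falls 3, 3 and 6, and with each array centred on its median, or scaled to the same spread, there were 7 rises and 3 falls. The mean log2 ratios of the family ran from -0.77 to 0.94, with quartiles at -0.35 and 0.17 and a median of -0.11, beside quartiles of -0.34 and 0.26 and a median of -0.044 for all tested genes. No member reached a 2-fold mean change, whereas 4.64% of all tested genes did. The median SD over arrays was 0.28 for members and 0.25 for all genes.

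**Figure D1:**
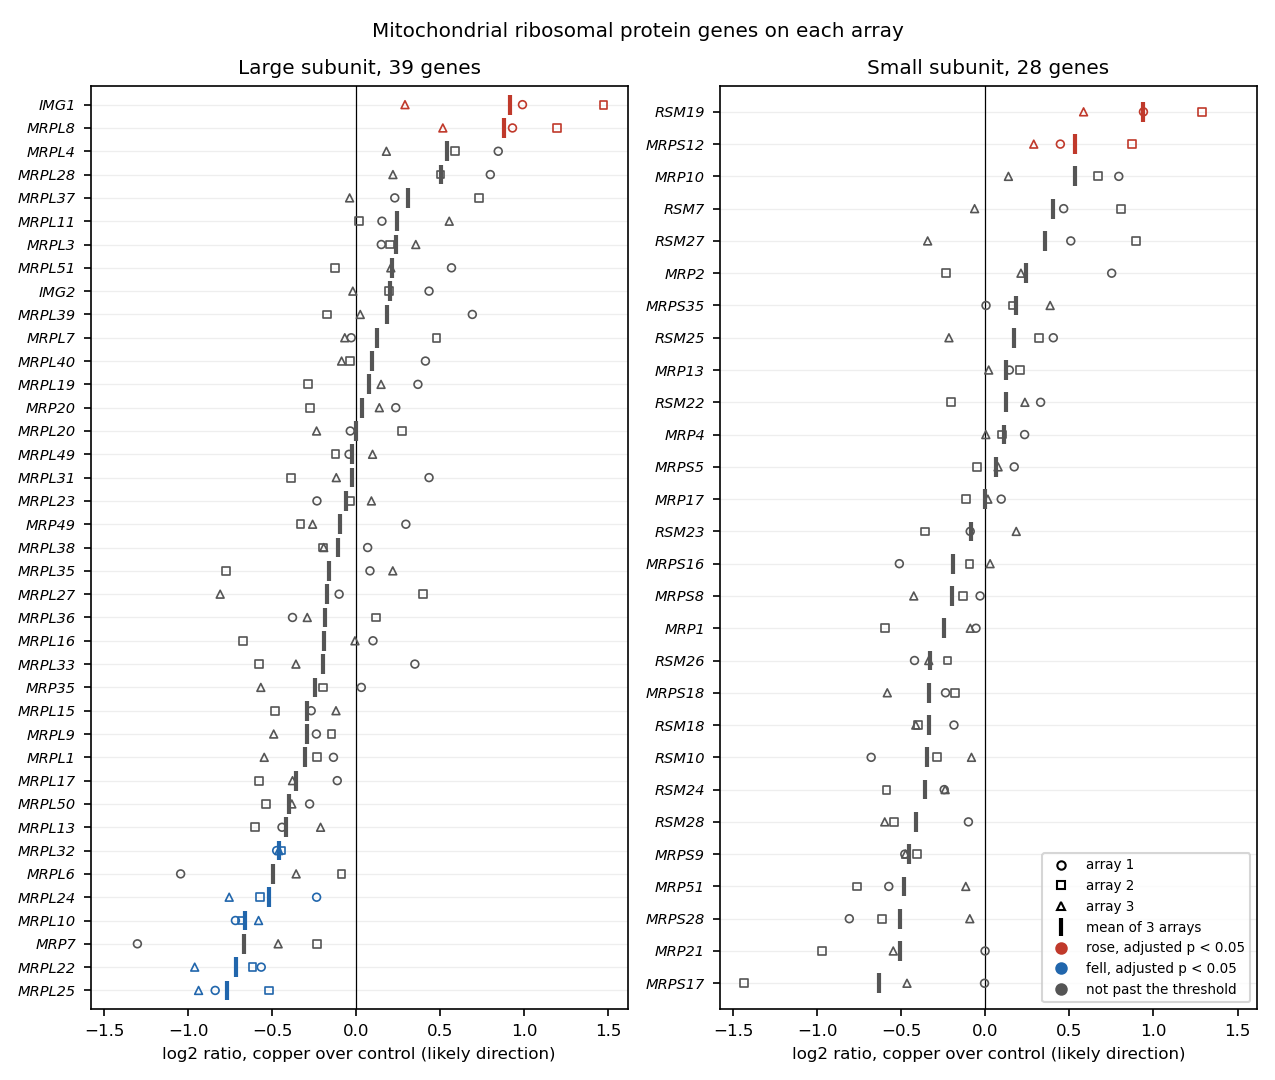
Log2 ratio of copper over control (horizontal axis, likely direction) of each of the 67 mitochondrial ribosomal protein genes, with the large subunit on the left and the small subunit on the right. Open symbols are the 3 arrays, bars their mean, and colour marks the 4 genes that rose and the 5 that fell at an adjusted p under 0.05. The 5 falls with all arrays are in the large subunit, and without array 1 the large subunit has 1 fall and the small subunit 2.

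RSM19 (YNR037C), which encodes a small-subunit protein related to bacterial S19 of the subunit's head, had the largest rise. Its log2 ratios were 0.94, 1.29 and 0.58 on arrays 1, 2 and 3, a mean of 0.94 ± 0.35 (SD, n = 3) or 1.92-fold (limma adjusted p = 0.0106). It was positive on each array and highest on array 2. Corrected for gene length, as described below for short genes, its mean was 0.52 (limma adjusted p = 0.0416). MRPS12 (YNR036C), whose bacterial relative S12 lies at the decoding centre and affects the accuracy of translation, read 0.45, 0.87 and 0.29, with a mean of 0.54 ± 0.30 or 1.45-fold (limma adjusted p = 0.0494). This call was close to the threshold and was lost in 6 of 15 alternatives (adjusted p 0.0256 to 0.191), among them leaving out array 1 or array 2.

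RSM19 and MRPS12 are direct neighbours on chromosome XIV in the yeast gene table and are the 1 pair of family members that adjoin each other. The genes on their outer sides did not pass the test. ARC35, beyond MRPS12, encodes a subunit of the Arp2/3 complex and read -0.86, -0.38 and 0.13 (limma adjusted p = 0.202), and DBP6, beyond RSM19, encodes a helicase of ribosome assembly and read -0.13, -0.15 and 0.13 (limma adjusted p = 0.822).

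In the large subunit, IMG1 and MRPL8 rose. IMG1 (YCR046C), named for its need in keeping the mitochondrial genome intact and related to bacterial L19, read 0.99, 1.47 and 0.29 on the 3 arrays, a mean of 0.92 ± 0.59 or 1.89-fold (limma adjusted p = 0.0235). The ratio on array 2 was far above that on array 3, and without array 2 the mean was 0.64 and the call was lost (adjusted p = 0.0825, the highest over its 14 alternatives). MRPL8 (YJL063C), related to L17 of bacteria, which lies by the exit of the peptide tunnel, read 0.93, 1.20 and 0.52, a mean of 0.88 ± 0.34 or 1.84-fold (limma adjusted p = 0.0129). It stayed past the threshold in 14 of 14 alternatives, as RSM19 did in 15 of 15.

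With all 3 arrays the 5 genes that fell belong to the large subunit, but this split depended on the arrays. Without array 1 the falls were 1 in the large subunit and 2 in the small one (MRPS17 and MRP21, limma adjusted p = 0.00624 and 0.0411), and without array 3 they were 4 and 2. MRPL25 (YGR076C), which encodes a protein with no bacterial relative, read -0.84, -0.52 and -0.94, a mean of -0.77 ± 0.22 (limma adjusted p = 0.0144). Its value on array 3 came from the high-power scan, and the low-power scan of the same array, which the submitters set aside for quality, gave -0.041. With all 5 scans in the fit and the array as a random block its mean was -0.61 and it was not past the threshold (adjusted p = 0.137), and without array 1 the adjusted p was 0.0516. MRPL22 (YNL177C), related to L22, which lines the peptide tunnel, read -0.56, -0.62 and -0.96 and fell by 0.71 ± 0.22 (limma adjusted p = 0.0178). This call held in 14 of 14 alternatives.

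MRPL10 (YNL284C), related to L15 of bacteria, read -0.72, -0.68 and -0.58, so that its arrays lay within a narrow band, and fell by 0.66 ± 0.071 on the log2 scale (limma adjusted p = 0.0179). Without array 1 or without array 2 its adjusted p was 0.104 and 0.0520. MRPL32 (YCR003W), whose product is trimmed by the m-AAA protease before ribosome assembly, read -0.47, -0.44 and -0.46, and fell by 0.46 ± 0.014 (limma adjusted p = 0.0485). The third of these came from the high-power scan of array 3, whose low-power scan gave 0.096, and with both scans of that array the mean was -0.37 (limma adjusted p = 0.102). MRPL24 (YMR193W), related to L28, read -0.24, -0.57 and -0.76 and fell by 0.52 ± 0.26 (limma adjusted p = 0.0486). Both sat at the edge of the threshold: MRPL32 passed in 3 of 14 alternatives and MRPL24 in 2 of 14.

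Several genes with mean ratios of like size did not pass. MRP7 (YNL005C), related to L27 near the peptidyl transferase centre, read -1.30, -0.24 and -0.46, most negative on array 1, for a mean of -0.67 ± 0.56 (limma adjusted p = 0.0548). MRPS17 (YMR188C), related to S17, read -0.0046, -1.44 and -0.47, and MRP21, related to S21, read -0.0014, -0.97 and -0.55, so that both stood near 0 on array 1 and lowest on array 2. Their means were -0.64 ± 0.73 and -0.51 ± 0.49 (limma adjusted p = 0.0988 and 0.0950). MRPS17 had the widest range over arrays in the family, 1.43. MRPS28, related to S15, read -0.81, -0.62 and -0.092, closest to 0 on array 3, with a mean of -0.51 ± 0.37 (limma adjusted p = 0.0690). It was past the threshold without array 3 (-0.71, limma adjusted p = 0.0214), with both scans of array 3 and with array weights. On the positive side MRPL4, related to L29 at the tunnel exit, read 0.84, 0.59 and 0.18 with a mean of 0.54 ± 0.34, and MRP10, a cysteine-rich protein that uses the Mia40 import pathway, read 0.79, 0.67 and 0.14 with a mean of 0.53 ± 0.35 (limma adjusted p = 0.0529 and 0.0561). MRPL4 was past the threshold in 8 of 15 alternatives and MRP10 in 5 of 15. MRP10 is a short gene, and corrected for length its mean was 0.14 (limma adjusted p = 0.519). The mitochondria-specific MRPL28 read 0.80, 0.50 and 0.22 (limma adjusted p = 0.0560). Each of these 3 was positive on all arrays and lowest on array 3. Past a looser adjusted p of 0.1 there were 7 members with positive and 14 with negative means, beside 1731 of all 4824 tested genes in either direction.

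Set side by side, the subunits had nearly the same centre. The median mean log2 ratio was -0.11 for the large and -0.14 for the small subunit. Array by array the large subunit had medians of 0.030, -0.20 and -0.12 and the small subunit -0.0030, -0.19 and -0.086. All tested genes had -0.027, -0.078 and -0.0090, so both subunits were below the median of all genes on arrays 2 and 3 and above it on array 1. Of the large subunit, 2 of 39 genes rose and 5 fell (17.9% called). Of the small subunit, 2 of 28 rose and 0 fell (7.14% called). Without arrays 1, 2 and 3 the falls numbered 1, 3 and 4 in the large and 2, 0 and 2 in the small subunit, and the rises 2, 1 and 4 in the large and 1, 1 and 5 in the small one. With array weights 7 large-subunit and 4 small-subunit genes fell, while the calls among all 4824 tested genes went from 1134 to 1616. Whether the subunits differ was not tested, and the difference between their medians, large minus small, of 0.032 turned to -0.036 without array 2, to -0.14 without array 1 and to -0.037 with the length correction.

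**Figure D2:**
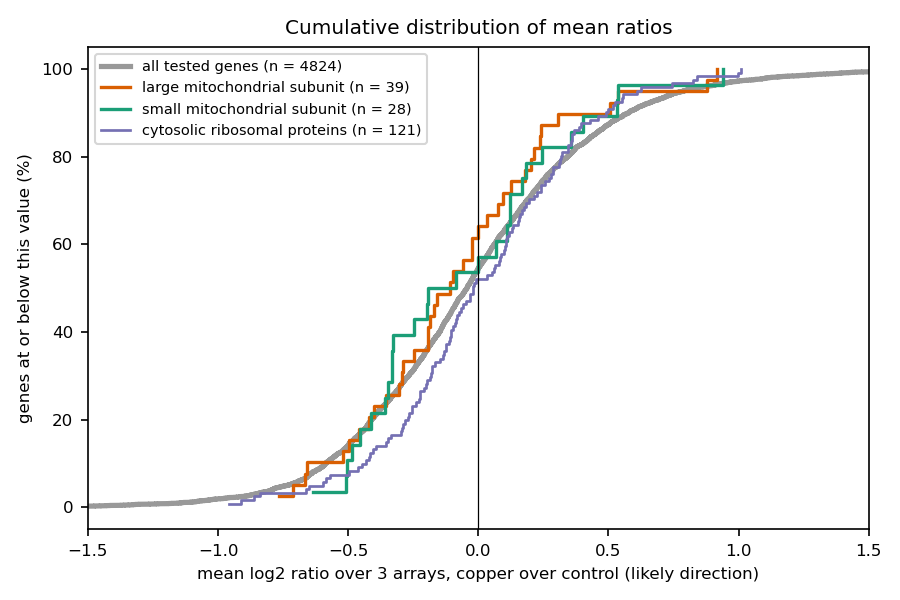
Share of genes (vertical axis, percent) with a mean log2 ratio at or below the value on the horizontal axis, for all tested genes, both mitochondrial subunits and cytosolic ribosomal proteins. The curves of the subunits run close to each other, with medians of -0.11 and -0.14, and end at 0.92 and 0.94, while that of all genes goes beyond the axis on both sides.

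Within each subunit members went both ways. All 3 arrays shared a sign in 38 of 67 members (56.7%), 12 upward and 26 downward, against 59.4% of all tested genes. The large subunit had 19 such genes of 39 and the small subunit 19 of 28. Single-array ratios beyond 1 in size occurred in 2, 4 and 0 members on arrays 1, 2 and 3, beside 7.32%, 11.0% and 4.39% of all tested genes. Across the 67 members, Pearson's r between arrays was 0.58 for arrays 1 and 2, 0.60 for arrays 1 and 3 and 0.49 for arrays 2 and 3, given as a description since all members share the same arrays. Across all tested genes the values were 0.69, 0.65 and 0.61.

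By place in the ribosome, a grouping made after the values were seen and from the positions of the bacterial relatives, proteins that lie together had ratios of both signs. Of the proteins around the peptide tunnel exit, MRPL8 rose, MRPL22 and MRPL32 fell, and MRPL4, positive on all arrays, did not pass. MRP20, related to L23, read 0.24, -0.27 and 0.14 and MRPL40, related to L24, read 0.41, -0.039 and -0.087. Both scattered around 0. Of the stalk and its base, MRPL11, related to L10, read 0.15, 0.015 and 0.55, MRPL19, related to L11, read 0.37, -0.29 and 0.15, and MRPL1, related to L1 of the opposite stalk, read -0.14, -0.23 and -0.55. MNP1, related to L12 of the stalk and with a name outside the rule, read -0.50, -0.43 and -0.21. Of these MRPL1 and MNP1 were negative on all arrays (limma adjusted p = 0.175 and 0.0915).

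Among further large-subunit proteins, MRPL9, related to L3, read -0.24, -0.15 and -0.49. MRPL6, related to L6 near the base of the stalk, read -1.04, -0.088 and -0.36. Both had negative values on all arrays without passing (limma adjusted p = 0.183 and 0.102). MRPL7, related to L5, read -0.030, 0.48 and -0.068, and MRPL16, related to L16, read 0.10, -0.67 and -0.0076. The signs of these genes differed between arrays.

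In the head of the small subunit RSM19 rose, and the other genes described did not pass. RSM7, related to S7, read 0.47, 0.81 and -0.064, high on arrays 1 and 2 and near 0 on array 3 (limma adjusted p = 0.148). MRPS9, related to S9, was -0.48, -0.41 and -0.47 and just missed the threshold (limma adjusted p = 0.0502), and RSM10, related to S10, was -0.68, -0.28 and -0.082. Both were negative on all arrays, while MRP2, related to S14, had 0.75, -0.24 and 0.21 and changed sign. In the body and platform, MRPS5, related to S5, was at 0.17, -0.050 and 0.076, MRPS8, related to S8, at -0.031, -0.13 and -0.43, and MRP51, a protein that also takes part in translating mitochondrial mRNAs through their leaders, at -0.57, -0.76 and -0.12. MRP51 was negative on all arrays but closest to 0 on array 3 (limma adjusted p = 0.0703). MRPS18, RSM18 and NAM9, related to S11, S18 and S4, were also negative on all arrays. They read -0.24, -0.18 and -0.58, then -0.19, -0.40 and -0.41, then -0.57, -0.40 and -0.29. MRPS8, MRPS17, MRPS28 and MRP21 were negative throughout too. In the other direction, MRPS12 rose. MRP4, related to S2, was at 0.23, 0.098 and 0.0031, positive throughout but near 0 on array 3 (limma adjusted p = 0.596). MRP17 and MRPS16, related to S6 and S16, changed sign between arrays.

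Members were also sorted into proteins with a bacterial relative and proteins found in mitochondrial ribosomes alone. Of 42 members of the first kind 4 rose and 4 fell (19.0% called). Of 24 of the second 0 rose and 1, MRPL25, fell (4.17% called). Among all tested genes 23.5% were called. RSM22, a methyltransferase-like protein, was put in neither class and read 0.33, -0.20 and 0.24. The medians were -0.19 and -0.056, a difference of -0.14 that was not tested and that was -0.044 without array 1 and -0.21 without array 2. In the second class, RSM27 read 0.51, 0.90 and -0.34 and MRPL27 -0.10, 0.40 and -0.81, whose signs changed between arrays. MRPL13, by contrast, was -0.44, -0.60 and -0.21 and RSM24 -0.24, -0.59 and -0.24, negative throughout (limma adjusted p = 0.0767 and 0.117). MRP13, with 0.14, 0.21 and 0.020, and MRPL3, with 0.15, 0.20 and 0.35, were positive throughout (limma adjusted p = 0.552 and 0.257).

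Genes of this family are short, from 213 to 1887 bases with a median of 699, against 1242 for all tested genes, and short genes had higher ratios on these arrays. Among all tested genes under 500 bases the median log2 ratio was 0.28 and 30.8% rose, whereas the 25 members of that length had a median of -0.023 and 2 of them, RSM19 and MRPS12, rose. Among genes of 500 bases or more the median was -0.077 for all genes and -0.27 for the 42 members. The shortest member, MRPL39, was 0.69, -0.17 and 0.024 on the 3 arrays, and the next large-subunit gene by length, MRPL33, was 0.35, -0.58 and -0.36. Both were highest on array 1. Over the 67 members Spearman's rho between length and ratio was -0.32, -0.25 and -0.0034 on arrays 1, 2 and 3, a description over genes that share the arrays.

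**Figure D3:**
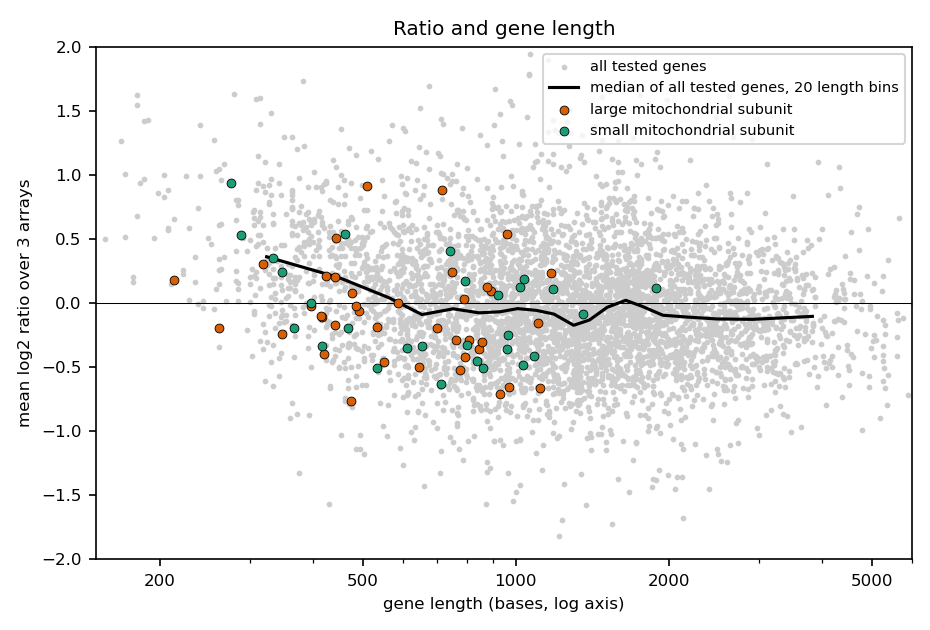
Mean log2 ratio over 3 arrays (vertical axis) against gene length in bases (log axis), for all tested genes in grey, with their median in 20 bins of length as a line, and for the large and small mitochondrial subunits in colour; a few genes lie beyond the axes. Members under 500 bases had a median of -0.023, against 0.28 for all genes of that length.

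When a loess fit of the ratio on length was subtracted on each array, the median of the family went from -0.11 to -0.25 and that of all tested genes from -0.044 to -0.016. The family medians after correction were -0.065, -0.29 and -0.11 on arrays 1, 2 and 3. The counts became 4 rises and 8 falls among the 67 members, 3 and 4 of which were called without the correction too. Among all 4824 tested genes the correction gave 574 rises and 528 falls, so the share of members that fell was near that of all genes. MRPL4 rose after correction (0.58, limma adjusted p = 0.0416), and MRPS12 was no longer past the threshold (0.39, limma adjusted p = 0.105). MRPL50, RSM18, MRP35 and MRPL33, all under 500 bases, fell after correction, by 0.60, 0.54, 0.54 and 0.65. Before it they read -0.28, -0.54 and -0.38 for MRPL50, -0.19, -0.40 and -0.41 for RSM18 and 0.030, -0.20 and -0.57 for MRP35. MRPL24 was lost (limma adjusted p = 0.0594).

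Ribosomal proteins of the same particle whose names fall outside the rule gave a similar mixture. Of 10 such genes tested, 1 rose and 1 fell. RTC6, related to bacterial L36, read 0.79, 0.92 and 0.24, for a mean of 0.65 ± 0.36 (limma adjusted p = 0.0330). It was lowest on array 3, and corrected for length its mean was 0.24 (adjusted p = 0.263). PET123, a mitochondria-specific protein of the small subunit, read -0.20, -0.81 and -0.69 and fell by 0.57 ± 0.32 (limma adjusted p = 0.0441), a call that held in 6 of 14 alternatives. VAR1, the ribosomal protein gene of the mitochondrial genome, and YML6 were not analysed here.

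Among genes that act with this ribosome, the falls were mostly in genes for activators, proteins that stabilise 1 mitochondrial mRNA or start its translation. Of 11 tested genes for such activators, 5 fell and 0 rose, 45.5% downward against 12.0% of all genes, and their median was -0.46. AEP3, which acts on the ATP6 and ATP8 message, read -0.28, -1.34 and -0.84, for a mean of -0.82 ± 0.53 (limma adjusted p = 0.0278). SOV1, which acts on VAR1, the message for the ribosomal protein made inside mitochondria, read -1.40, -0.49 and -0.33, for a mean of -0.74 ± 0.58 (limma adjusted p = 0.0427). Both were negative on all arrays, with 1 array far below the other two.

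AEP1 and AEP2, needed for the ATP9 message, read -0.37, -0.92 and -0.57 and -0.62, -0.27 and -0.67, and fell by 0.62 ± 0.28 and 0.52 ± 0.21 (limma adjusted p = 0.0298 and 0.0435). CBP1, which protects the message of cytochrome b, read -0.69, -0.73 and -0.25 and fell by 0.56 ± 0.27 (limma adjusted p = 0.0408). MSS51, which acts on the COX1 message, was the 1 activator with positive values throughout, 0.51, 0.30 and 0.58 (limma adjusted p = 0.0524). The activator count depended on the arrays: 5 became 2, 0 and 4 without arrays 1, 2 and 3. With the length correction 2 of 11 fell and 1, MSS51, rose (0.53, limma adjusted p = 0.0339). All 4824 tested genes then had 574 rises and 528 falls. Activators without a value on every array were not tested. Of these, CBS1, an activator of the cytochrome b message, held -1.66 and -1.26 on arrays 1 and 3. On the same arrays PET309 held -0.65 and -0.19 and CBP6 0.55 and -0.17. PET111 held -0.13 and -0.14 on arrays 2 and 3.

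**Figure D4:**
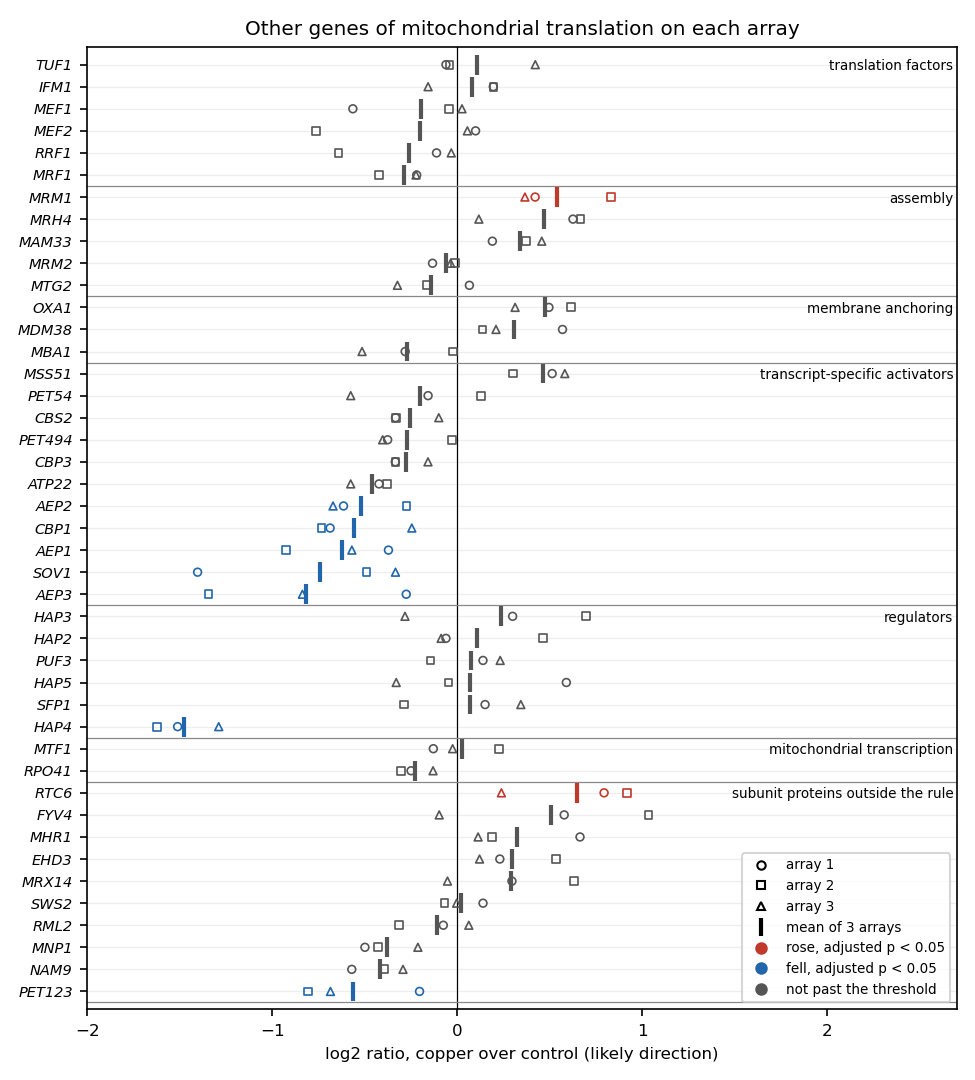
Log2 ratio of copper over control on each array for 33 tested genes of mitochondrial translation and its regulation and for 10 ribosomal proteins named outside the rule, in the lists given at the right. Open symbols are arrays and bars their mean. Colour marks 5 activators, HAP4 and PET123 as having fallen and MRM1 and RTC6 as having risen, with HAP4 lowest at -1.48.

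None of 6 tested translation factors passed in the limma test, at an unadjusted p under 0.05 either. They ran from MRF1, the release factor, at -0.22, -0.42 and -0.22 (limma adjusted p = 0.173), to TUF1, the elongation factor, at -0.062, -0.043 and 0.42 (limma adjusted p = 0.657). Of 5 tested assembly genes MRM1, a methyltransferase of the large mitochondrial rRNA, rose, with 0.42, 0.83 and 0.36 and a mean of 0.54 ± 0.25 (limma adjusted p = 0.0434, past the threshold in 10 of 15 alternatives). The lowest, MTG2, a GTPase of large-subunit assembly, was at 0.065, -0.17 and -0.32 (limma adjusted p = 0.514). None of 3 anchoring genes passed, though 1 had an unadjusted p under 0.05: OXA1, the insertase that receives new proteins at the inner membrane, had 0.49, 0.62 and 0.31 (limma adjusted p = 0.0502). MBA1, a ribosome receptor of that membrane, had -0.28, -0.026 and -0.52 (limma adjusted p = 0.230).

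Among 6 tested regulators, HAP4 fell. HAP4, the limiting activation subunit of the Hap complex that switches on respiratory genes and is itself repressed by glucose, read -1.51, -1.62 and -1.29, a mean of -1.48 ± 0.17 (limma adjusted p = 0.00152). It was far below 0 on each array and held in 15 of 15 alternatives. The DNA-binding subunit HAP3 had 0.30, 0.69 and -0.28, and PUF3, the regulator of these mRNAs, had 0.14, -0.15 and 0.23, with signs that differed between arrays (limma adjusted p = 0.408 and 0.743). RPO41, the mitochondrial RNA polymerase, was at -0.25, -0.30 and -0.13 and its partner MTF1 at -0.13, 0.23 and -0.026, neither past the threshold (limma adjusted p = 0.266 and 0.924).

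Related groups of genes were set beside the mitochondrial ribosome, whose median was -0.11 with 13.4% called. Cytosolic ribosomal protein genes had a median of -0.019, with 9 of 121 rising and 9 falling (14.9% called). Of 32 nuclear genes for respiratory complexes and the ATP synthase, 15 rose and 0 fell, with a median of 0.49. Their median length was 465 bases, and 9 rose with the length correction, after which the median was 0.34, beside -0.25 for the mitochondrial ribosome. These differences between groups of genes were not tested.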

How the data were processed

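The authors' deposited table holds log2 ratios. Per the labels, LOWESS was applied to spots whose flag was 0. The base of the logarithm follows from the table's minimum of -6.64, which equals log2 of 0.01. Column medians were -0.0053, -0.023, -0.025, -0.013 and -0.0017 for the scan of array 1, the high- and low-power scans of array 2 and those of array 3. Direction was not stated. How background was handled, and with which software, is not given. Array 1 was its single scan, array 2 the mean of both scans or whichever held a value, and array 3 its high-power scan, since the series description sets the low-power data aside. Array 2's low-power scan held 31 members.

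Of 6912 probes, 5446 had 1 gene symbol, 0 several and 1466 none. Each of the 5446 was found in a RefSeq table of yeast genes on assembly R64, without any change of symbol. No build is named for the array, so no coordinates are printed. All 67 member lengths were multiples of 3. Probes of a gene were averaged. Mean ratios of 4824 genes were set against 0 in a two-sided moderated test of limma 3.58.1 (R 4.3.3; lmFit, then eBayes), and p-values were adjusted by Benjamini-Hochberg over all of them. The code was tested on simulated data. With spreads drawn from the raw SDs of 3 arrays it recovered fewer large changes than the set minimum, and the spreads were then drawn from limma's moderated SDs. In that version false calls averaged above the nominal share, so calls with an adjusted p close to the threshold are less secure than it states. The length correction was a loess fit on log2 length per array (span 0.4, degree 1). Errors after ± are SDs over 3 arrays.

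Members and lists were chosen with earlier results of these data known. Named with values were all members past the threshold, the 3 highest and 3 lowest of each subunit, any with arrays spanning over 1.5 (0 members), and called, highest and lowest genes of the other lists. Other members, MNP1 and NAM9 were named after their values were seen, as were PUF3, the untested activators, neighbouring genes and the split at 500 bases. Alternatives used other ways of joining scans, centring, scaling, filters, variance estimates, weights, array blocks, single probes, the length correction and left-out arrays. Protein and promoter sequences were not used here.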

Additional observations from a re-analysis of the deposited data

How the results depend on the processing

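Of 129 alternative values of the 9 called members, 95 stayed past the threshold, 34 did not and 0 changed sign. Precision rested on 3 arrays, and the cause of the shifts below was not tested. Without 1 array, the calls among all genes ran from 494 to 1211, members that rose from 2 to 9 and that fell from 3 to 6, and calls among proteins named outside the rule from 0 to 2. In the large subunit rises ran from 1 to 4 and falls from 1 to 4, and in the small subunit rises from 1 to 5 and falls from 0 to 2. Translation, assembly and regulator genes that rose ran from 0 to 2 and that fell from 1 to 5, activators that fell from 0 to 4, and the respiratory median from 0.44 to 0.49. The subunit difference, large minus small, ran from -0.14 to 0.062, the small-subunit median from -0.15 to -0.013, and the difference of conserved minus mitochondria-specific members from -0.21 to -0.044.

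Members that rose numbered 7 with arrays centred or scaled, with array weights and at an adjusted p under 0.1 or an unadjusted p under 0.05. All genes gave 1616 calls with array weights, against 1134 without them. Members that fell numbered 2 with the low-power scan alone (2686 genes tested) or all 5 scans, 3 with the high-power scan alone, centring, scaling, values on at least 2 arrays or single probes, 8 with the length correction, 11 with weights, and 14 and 17 at the looser thresholds, at which all genes gave 1731 and 1940 calls. Large-subunit rises numbered 0 with the low-power scan and 4 with the high-power scan, either centring, scaling or weights, and its falls 2 with the low-power scan or all scans and 3 with the high-power scan, centring, scaling, 2 arrays or single probes. Small-subunit rises numbered 1 with the high-power scan, 2 arrays, single probes or the length correction, and its falls 1 with both scans of array 3, the robust variance or the length correction and 4 with weights. Proteins outside the rule gave 1 call with the low-power scan, either centring or 2 arrays, and 0 with single probes or the length correction. Partner genes that rose numbered 0 with 2 arrays or single probes, 2 with the high-power scan, all scans or the robust variance, 3 with centring, scaling or the length correction, and 4 with weights. Those that fell numbered 2 with the low-power scan or single probes and 3 with the length correction, of which activators made up 1, 1 and 2. Activators that fell numbered 3 with 2 arrays.

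The subunit difference was -0.22 with the low-power scan, where the small-subunit median was 0.085, and 0.072, 0.069 and 0.069 with both scans of array 3, all scans and weights. It was -0.037 with the length correction and -0.016 with proteins outside the rule added. The length correction moved the member median to -0.25, the large-subunit median to -0.25, the conserved difference to -0.21, the respiratory median to 0.34 and rho with length to 0.11. The conserved difference was -0.011 with the low-power scan. The respiratory median was 0.54 with the high-power scan or scaling and 0.55 with scans centred. MTF1, near 0, turned to -0.020, -0.026, -0.038 and -0.078 with both scans of array 3, all scans, weights and without array 2, and TUF1 to -0.052 without array 3 (left-out arrays gave -0.078 to 0.0999 for MTF1 and -0.052 to 0.19 for TUF1). Each ratio already pairs copper and control RNA on 1 array, so the test of the mean ratio against 0 is a paired one.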

Other observations

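Of 12 tested genes that adjoin called members on the chromosome and are not members themselves, looked up after the values were seen, 4 rose, 0 fell and 8 did not pass (33.3% rose, against 11.5% of all tested genes). RRT12, beside IMG1, rose by 0.67 ± 0.32 (limma adjusted p = 0.0269), and on the other side BUD23 had 0.23 ± 0.30 (limma adjusted p = 0.339). DLS1, which encodes a chromatin remodelling subunit and adjoins MRPL8, rose by 0.48 ± 0.029 (limma adjusted p = 0.0425). TDA7, beside MRPL22, and WSC2, a cell wall stress sensor gene beside MRPL10, rose by 0.51 ± 0.082 and 0.76 ± 0.16 (limma adjusted p = 0.0359 and 0.0127), while MRPL22 and MRPL10 fell. Besides BUD23, ARC35 and DBP6, those that did not pass were PEX8 (0.069), RPS3 (-0.35), GYL1 (0.20), RPL36A (0.39) and CDC10 (-0.033).

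The low-power scans held fewer members. On array 2 both scans held 31 members, with a median difference between scans of 0.123 in size and a largest of 0.677, for MRP13. On array 3, whose low-power scan the submitters set aside, both held 52 members, with a median difference of 0.172 and a largest of 0.896, for MRPL25. Pearson's r between the scans was 0.90 on array 2 and 0.56 on array 3, over genes that share the array.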
